A study of Mus musculus with 16 samples.

Results

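The 10 genes described here make, break down or sense prostaglandins and leukotrienes, and RNA sequencing measured them in primary murine tracheal epithelial cell cultures (MTECs). They were taken by symbol from a table of 49315 Ensembl gene identifiers, as Pla2g4a, Ptgs1, Ptgs2, Ptges, Ptges2, Hpgd, Alox12, Alox15, Alox5ap and Ptger4. All 10 were found, and all 10 were among the 15993 genes that passed a filter on low counts. The MTECs came from male (M) or female (F) mice that were wild type (WT) or knockout (KO) for Lman1, which encodes a cargo receptor of the secretory pathway, and they were either left naive or treated overnight with 20 µg/ml of house dust mite (HDM) extract. Each of the 8 combinations was sequenced in 2 biological replicates, giving 16 libraries. The study's methods describe a constitutive knockout, tracheas pooled across mice and growth on coated inserts with air above the cells, which all groups shared, so a replicate is a culture from pooled tissue and not a single animal. The p-values below measure the spread between such cultures only.

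Eicosanoids are short-lived lipid signals made from arachidonic acid. Cytosolic phospholipase A2 (Pla2g4a) releases this fatty acid from membranes, and the cyclooxygenases (Ptgs1, the housekeeping form, and Ptgs2, the inducible form) convert it to prostaglandin H2, from which prostaglandin E synthases (Ptges and Ptges2) make prostaglandin E2. Hpgd, 15-hydroxyprostaglandin dehydrogenase, starts the inactivation of prostaglandin E2, and Ptger4 is one of its receptors (EP4). In the other arm, the lipoxygenases Alox12 and Alox15 add oxygen to arachidonic acid, and Alox5ap, the 5-lipoxygenase activating protein, hands it to 5-lipoxygenase for leukotriene synthesis. In airways, prostaglandin E2 is known as a largely protective, bronchodilating signal and the cysteinyl leukotrienes as constrictors.

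Libraries held between 21860698 and 43442188 counts on genes. Xist and Ddx3y matched the labelled sex in 16 of 16 libraries. The transcript of Lman1 did not always match the labelled genotype: it lay between 101 and 144 TMM-scaled CPM (counts set relative to the size of the library) in WT libraries and between 12.8 and 78.1 CPM in those labelled KO, of which 5 of 8, including all those treated with HDM, exceeded 50% of the WT mean. In F KO, Lman1 stood at 10.6% of the WT mean in both naive libraries and at 55.3% and 64.8% in the HDM-treated ones. Within F KO, HDM treatment and the Lman1 level therefore cannot be told apart. In M KO it stood at 11.8% and 52.6% in naive and 53.9% and 54.8% in HDM-treated libraries. KO stands below for libraries labelled KO. Epithelial markers were abundant, with basal cell keratins and the club cell enzyme Cyp2f2 at the highest levels, whereas the club cell secretoglobin Scgb1a1 was low, with group means between 0.0861 and 3.47 CPM. Endothelial and neutrophil marker lists summed to at most 2.29 and 0.969 CPM in any library. Macrophage, fibroblast and smooth muscle lists reached sums of 303, 580 and 464 CPM, the first mostly from Lyz2 and the last mostly from Acta2. The fibroblast sum was 26.6 CPM in 1 F WT naive library and 533 in the other. As these are bulk libraries, fewer cells of a type and less RNA per cell cannot be told apart.

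Levels between genes were compared per kilobase of exon, as the median of CPM per kilobase over the 8 naive libraries. On this scale Ptges was highest, at 62.7, followed by Ptgs2 at 23.7 and Pla2g4a at 12.7. Ptges2 stood at 6.36, and the remaining genes were lower, with Alox5ap at 2.27, Alox12 at 2.04, Ptgs1 at 1.60, Hpgd at 1.52, Ptger4 at 1.21 and Alox15 at 0.523. Apart from Ptgs1, the enzymes that lead from membrane lipid to prostaglandin E2 thus had the highest transcript levels, and the lipoxygenase arm, the breakdown enzyme and the receptor had the lowest. Naive libraries spread from 50.6 to 86.5 CPM per kilobase for Ptges and from 0.372 to 0.618 for Alox15. Pla2g4a and Ptgs2 are neighbours on chromosome 1, with 138.7 kb between their annotated ends, and Alox12 and Alox15 lie 88.8 kb apart on chromosome 11.

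**Figure D1:**
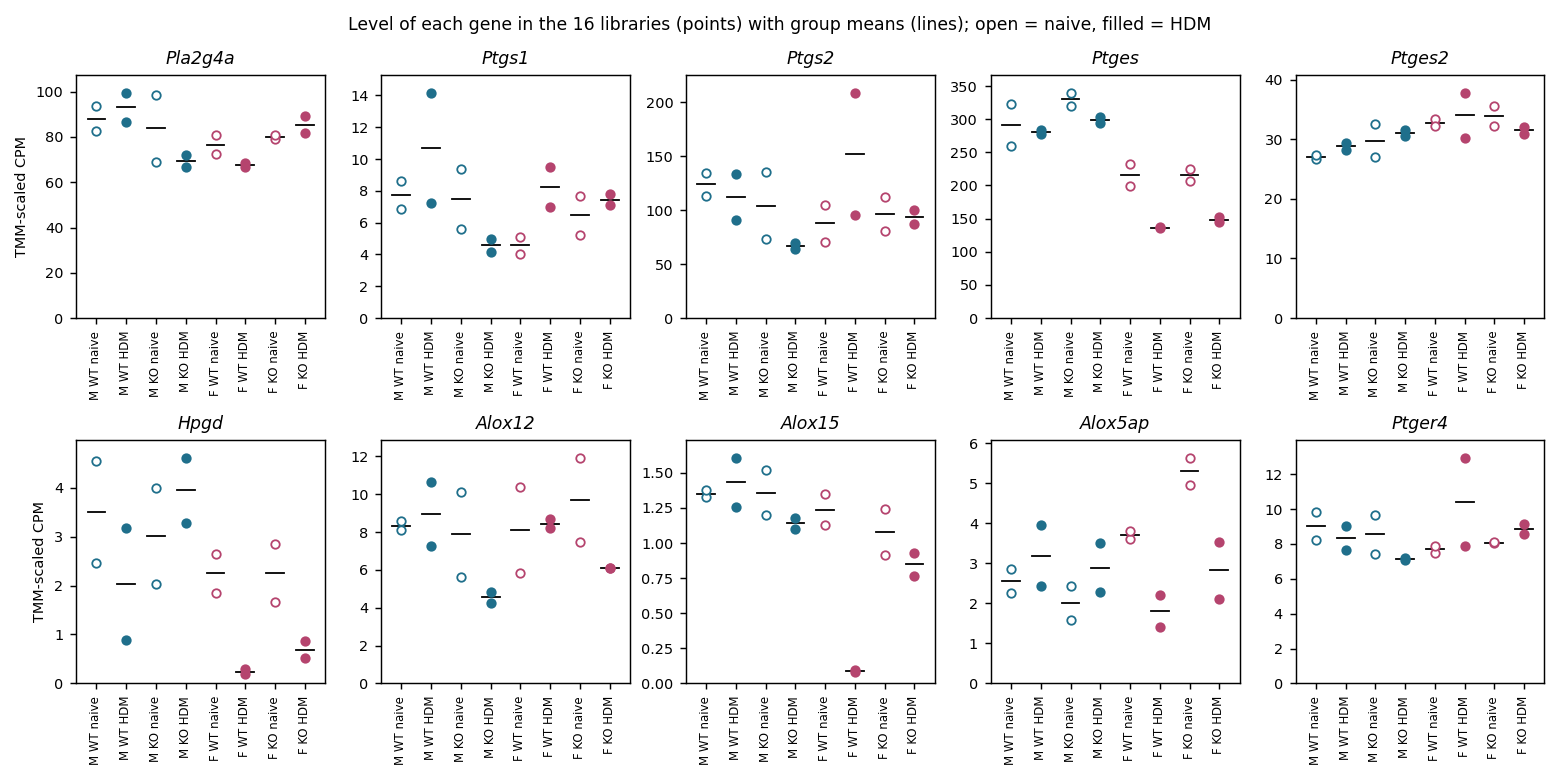
TMM-scaled CPM (linear axis from 0) of each of the 10 genes in every library, with males in blue, females in red, naive cultures as open points, HDM-treated cultures as filled points and a line at the mean of each group of 2. Ptges in F WT HDM lies at 136 and 137, below all other libraries, and Alox15 in F WT HDM lies at 0.0832 and 0.0947 against 0.767 or more elsewhere.

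The first question was how MTECs of each sex and genotype responded to HDM. In F WT MTECs, 4 of the 10 genes fell (Ptges, Hpgd, Alox15 and Alox5ap) and none passed the test in the other direction, at an adjusted p under 0.05 (quasi-likelihood test in edgeR, adjusted by Benjamini-Hochberg). In that comparison 43.1% of all tested genes passed, and 22.4% did so with lower values. In F KO MTECs, 1 of the 10 fell (Ptges), against 10.4% of all tested genes in either direction and 5.77% with lower values. The HDM-treated F KO libraries also held more Lman1 transcript than the naive ones, which applies to every F KO response below. In M WT and M KO MTECs, 0 of the 10 passed, as did 0% of all genes; DESeq2 called 1 gene of all in each, and 665 and 857 genes had an unadjusted p under 0.05 by edgeR, among them 0 and 1 of the 10. The median log2 fold change of the 10 genes was -0.06 in F WT against -0.02 over all genes, and -0.22 against -0.0048 in F KO.

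Ptges (ENSMUSG00000050737; chromosome 2, 30889471 to 30929863, minus strand, GRCm38) encodes the inducible microsomal prostaglandin E synthase. Its levels in F WT MTECs were 233 and 199 CPM when naive and 136 and 137 after HDM. In F KO MTECs they were 226 and 206 when naive and 153 and 144 after HDM. The HDM-treated replicates thus lay below the naive ones in both female groups, without overlap. The log2 fold change was -0.66 in F WT (standard error, SE, 0.10, a 1.58-fold lower level, adjusted p = 4.04e-04, edgeR) and -0.54 in F KO (SE 0.10, 1.45-fold lower, adjusted p = 0.00766). SE here is derived from the test, as the absolute log2 fold change over the square root of the F statistic. The F KO call was lost without F KO naive replicate 1 (log2 fold change -0.47, adjusted p = 0.0866) and without F KO HDM replicate 2 (-0.50, adjusted p = 0.0869), again by edgeR.

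In males Ptges did not pass. M WT libraries had 323 and 260 CPM when naive and 284 and 278 after HDM, and M KO libraries had 320 and 340 when naive and 295 and 303 after HDM. The log2 fold changes were -0.05 in M WT and -0.14 in M KO (SE 0.10 each, adjusted p = 0.974 and 0.787, edgeR). The response itself differed between the sexes in WT MTECs, by -0.61 on the log2 scale (SE 0.15, adjusted p = 0.0112), a comparison in which 24.2% of all genes passed and 2 of the 10 did (Ptges and Alox15, both lower, against 12.8% of all genes lower). That call for Ptges was lost without F WT naive replicate 1 (-0.50, adjusted p = 0.0542) and in a fit of the compared libraries alone (-0.61, adjusted p = 0.0514). In KO MTECs the response of Ptges differed between the sexes by -0.40 (SE 0.15, adjusted p = 0.166, edgeR), and 0 of the 10 genes passed there, against 3.56% of all genes. At an unadjusted p under 0.05 by edgeR were 3 of the 10, and 2972 of all 15993 genes. DESeq2 called 0 of the 10, and 1167 of 29397 genes.

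Hpgd (ENSMUSG00000031613; chromosome 8, 56294585 to 56321043, plus strand), the gene for the enzyme that inactivates prostaglandin E2, was low throughout. F WT MTECs had 2.65 and 1.84 CPM when naive and 0.291 and 0.189 after HDM, the latter resting on 7 and 4 counts. The log2 fold change there was -3.18 (SE 0.72, 9.06-fold lower, adjusted p = 0.00411, edgeR). F KO MTECs had 2.85 and 1.67 CPM when naive and 0.525 and 0.859 after HDM, also without overlap, with a log2 fold change of -1.70 (SE 0.61, adjusted p = 0.103). The F KO value passed by DESeq2 (adjusted p = 0.0443), in a fit of the compared libraries alone (adjusted p = 0.0171, edgeR) and without a filter on low counts (adjusted p = 2.55e-05). Hence both female groups had lower values after HDM, and the call in F KO depended on the setting; the difference between these 2 responses was 1.48 (SE 0.96, adjusted p = 0.340, edgeR). Male levels varied widely between replicates, from 0.882 to 3.18 CPM in M WT HDM, and gave log2 fold changes of -0.78 in M WT and 0.38 in M KO (adjusted p = 0.936 and 0.884). The F WT response differed from the M WT one by -2.40 (SE 0.91, adjusted p = 0.0777, edgeR), and by -3.05 with a pass when M WT HDM replicate 1 was left out (adjusted p = 0.0179). This difference also passed by DESeq2 (-2.42, adjusted p = 0.0405) and without a filter (-2.42, adjusted p = 5.11e-05, edgeR). The unfiltered fit is less strict, as it called 149 and 705 genes in M WT and M KO responses, where the fit used here called 0.

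The cyclooxygenases had higher mean levels in F WT HDM than in F WT naive MTECs, but neither passed the test in the fit used here, and both did under some of the other settings. Ptgs2 (ENSMUSG00000032487; chromosome 1, 150100031 to 150108227, plus strand) stood at 70.7 and 105 CPM in F WT naive and 95.9 and 209 in F WT HDM libraries, so that the groups overlapped and 1 HDM replicate carried most of the difference. Its log2 fold change was 0.79 (SE 0.36, adjusted p = 0.0992, edgeR); without F WT HDM replicate 1 it was 1.24 and passed (adjusted p = 0.0163), as did the difference from the M WT response (0.93 with all libraries, 1.38 without that one, adjusted p = 0.0494). Ptgs1 (ENSMUSG00000047250; chromosome 2, 36230426 to 36252272, plus strand) stood at 4.03 and 5.10 CPM in F WT naive and 6.99 and 9.47 in F WT HDM libraries, without overlap, with a log2 fold change of 0.84 (SE 0.34, adjusted p = 0.0642, edgeR). Ptgs1 passed by DESeq2 (0.86, adjusted p = 0.0444) and in a fit of the compared libraries alone (0.85, adjusted p = 0.0415, edgeR). Without a filter on low counts both Ptgs1 (adjusted p = 0.00128, edgeR) and Ptgs2 (adjusted p = 1.04e-12) passed, although the Ptgs2 replicates overlapped. The unfiltered fit called 6967 of 29397 genes in F WT, and also 149 in M WT and 705 in M KO MTECs, where the fit used here called 0. In M KO MTECs both genes had lower values after HDM. Ptgs2 went from 135 and 73.3 CPM to 69.1 and 64.1, and Ptgs1 from 9.34 and 5.60 to 4.99 and 4.16, with log2 fold changes of -0.64 and -0.70 that did not pass (adjusted p = 0.781 for each, edgeR).

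The promoters of Ptges and Hpgd, which fell in F WT MTECs, and of Ptgs2, which did not pass, are shown for their differing base motifs. They come from RefSeq on GRCm38.p6 and cover 250 bases before to 50 bases after the RefSeq start, in the gene's own direction. Of the 10 genes, 8 had an entry, and Alox15 and Alox5ap did not. Capitals mark matches on either strand to TATAAA, the letters of the TATA box, to CGTCA, the core of the cyclic AMP response element, to CACGTG, the E-box, to TGANTCA, the AP-1 element, to GGGCGG, the GC box, and to the NF-kB consensus. The Ptges window is chr2:30903248-30903547 on the minus strand, 26566 bases inside the annotated gene from its GENCODE start. The Hpgd window is chr8:56294302-56294601 and that of Ptgs2 is chr1:150099781-150100080, both on the plus strand.
Ptges: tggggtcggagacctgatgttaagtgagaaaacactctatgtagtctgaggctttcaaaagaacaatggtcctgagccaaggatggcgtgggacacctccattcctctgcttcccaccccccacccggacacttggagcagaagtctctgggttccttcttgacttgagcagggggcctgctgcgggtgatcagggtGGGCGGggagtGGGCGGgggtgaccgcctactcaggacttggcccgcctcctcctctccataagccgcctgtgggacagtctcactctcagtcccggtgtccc
Hpgd: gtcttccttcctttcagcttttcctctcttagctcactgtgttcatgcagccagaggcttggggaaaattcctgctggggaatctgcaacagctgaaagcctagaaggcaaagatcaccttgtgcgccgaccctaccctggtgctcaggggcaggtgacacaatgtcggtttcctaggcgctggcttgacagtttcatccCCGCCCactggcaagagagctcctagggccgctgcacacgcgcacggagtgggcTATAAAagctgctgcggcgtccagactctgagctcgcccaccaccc
Ptgs2: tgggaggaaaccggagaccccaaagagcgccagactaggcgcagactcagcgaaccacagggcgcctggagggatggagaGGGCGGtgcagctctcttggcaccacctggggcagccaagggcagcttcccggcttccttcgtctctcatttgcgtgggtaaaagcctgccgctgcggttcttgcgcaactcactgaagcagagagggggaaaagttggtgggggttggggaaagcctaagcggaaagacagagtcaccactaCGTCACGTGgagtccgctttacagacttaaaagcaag

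Counting from 1 at the RefSeq start, Ptges had GC boxes that began 53 and 42 bases before it, and Hpgd had a GC box on the opposite strand 50 bases before it and a TATA box at base 5. The RefSeq start of Hpgd lies 33 bases before its GENCODE start, so this TATA box lies before the GENCODE start. Ptgs2 had a GC box 170 bases before the start, and a cyclic AMP response element core at base 14 that shared bases with an E-box at base 17. No AP-1 or NF-kB letters were found in these 3 windows. Over 32851 RefSeq promoters of the same length, the share with a match was 35.7% for the GC box, 20.8% for the cyclic AMP response element core, 13.6% for the TATA box, 8.46% for NF-kB, 7.81% for AP-1 and 7.15% for the E-box. The matches describe letters, not binding.

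Ptges2, which encodes another prostaglandin E synthase, and Pla2g4a varied little with HDM. Over all 16 libraries Ptges2 (ENSMUSG00000026820) lay between 26.7 and 37.8 CPM, and its log2 fold changes with HDM ran from -0.11 in F KO to 0.09 in M WT, each with an SE of 0.11. Pla2g4a (ENSMUSG00000056220) stood at 72.3 and 81.0 CPM in F WT naive and 68.7 and 66.6 in F WT HDM libraries, with a log2 fold change of -0.18 (SE 0.14, adjusted p = 0.325, edgeR). In the other groups its HDM response lay between -0.27 and 0.09, and none passed. The F KO response differed from the M KO one by 0.37 (SE 0.20, adjusted p = 0.355), and by 0.61 without M KO naive replicate 2, where it passed (adjusted p = 0.0306, edgeR). Thus the prostaglandin E synthase that is known as inducible moved with HDM in females, whereas no change of its partner passed the test.

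The receptor gene Ptger4 (ENSMUSG00000039942; chromosome 15, 5206661 to 5244187, minus strand) stood at 7.48 and 7.89 CPM in F WT naive and 12.9 and 7.86 in F WT HDM libraries. Only replicate 1 of the HDM libraries was high. The log2 fold change was 0.44 (SE 0.21, adjusted p = 0.113, edgeR), and without F WT HDM replicate 2 it was 0.75 and passed (adjusted p = 0.0117), as did its difference from the M WT response (0.55 with all libraries, 0.86 without that one, adjusted p = 0.0352). In F KO, M WT and M KO MTECs it was 0.13, -0.11 and -0.26. Ttc33 overlaps this gene on the opposite strand, and drew 17944 counts over all libraries against 4078 for Ptger4. As the strand setting of the counting is not given in the sources used here, reads of the overlap cannot be told apart.

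In the lipoxygenase arm, Alox15 (ENSMUSG00000018924; chromosome 11, 70344152 to 70352031, minus strand), which encodes the murine 12/15-lipoxygenase, fell below the floor of detection in F WT MTECs after HDM. Its levels there were 1.13 and 1.35 CPM when naive and 0.0832 and 0.0947 after HDM, which is 31 and 60 counts against 2 and 2, the floor being 3 counts in a library. The ratio of pooled naive to HDM levels was 14.3, with an exact 95% interval of 5.38 to 53.5 that covers counting error only. The fitted log2 fold change, which depends on the prior count at such levels, was -3.75 (SE 0.37, adjusted p = 1.81e-05, edgeR). This SE, derived from the F statistic, is smaller than the counting error that the exact interval covers. The SE of the other Alox15 contrasts with F WT HDM is likewise smaller than the counting error. The call held without each of the 4 compared libraries in turn, with values from -3.87 to -3.61.

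In no other group did Alox15 pass. F KO libraries had 0.912 and 1.24 CPM when naive and 0.767 and 0.931 after HDM, which overlap (log2 fold change -0.33, SE 0.27, adjusted p = 0.476, edgeR). M WT libraries had 1.33 and 1.38 when naive and 1.26 and 1.61 after HDM, and M KO libraries 1.52 and 1.20 against 1.18 and 1.10. The response of F WT differed from that of M WT by -3.83 (SE 0.46, adjusted p = 2.05e-04) and from that of F KO by 3.41 as KO minus WT (SE 0.47, adjusted p = 0.00189). In the latter comparison Alox15 was the 1 gene of the 10 that passed, against 11.2% of all genes in either direction and 6.16% with higher values. Between M KO and M WT responses 0 of the 10 passed, as did 0% of all genes by edgeR (1388 had an unadjusted p under 0.05) and 0 by DESeq2, and the difference for Alox15 was -0.33 (adjusted p = 0.742).

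Alox5ap (ENSMUSG00000060063; chromosome 5, 149264767 to 149288153, plus strand) fell in F WT MTECs, from 3.60 and 3.80 CPM to 2.21 and 1.42, without overlap (log2 fold change -1.02, SE 0.36, adjusted p = 0.0370, edgeR). The call was lost without F WT naive replicate 1 (-1.07, adjusted p = 0.0926), F WT naive replicate 2 (-0.99, adjusted p = 0.112) or F WT HDM replicate 2 (-0.75, adjusted p = 0.226). F KO MTECs had 4.96 and 5.64 CPM when naive and 2.10 and 3.54 after HDM, also without overlap, but the log2 fold change of -0.90 did not pass (SE 0.34, adjusted p = 0.122, edgeR) other than in a fit of the compared libraries alone (adjusted p = 0.0405) and without a filter (adjusted p = 0.0198). Both male groups had higher means after HDM, with log2 fold changes of 0.32 and 0.52 that did not pass (adjusted p = 0.939 and 0.782). The F WT response differed from the M WT one by -1.34 (SE 0.50, adjusted p = 0.0703, edgeR), and by -1.66 without M WT HDM replicate 1 (adjusted p = 0.0435). Alox12 (ENSMUSG00000000320), the platelet-type 12-lipoxygenase gene, stood at 5.81 and 10.4 CPM in F WT naive and 8.24 and 8.67 in F WT HDM libraries, which overlap. Its lowest levels were in M KO HDM, at 4.85 and 4.27 CPM against 10.1 and 5.63 in M KO naive libraries (log2 fold change -0.78, SE 0.33, adjusted p = 0.781, edgeR).

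**Figure D2:**
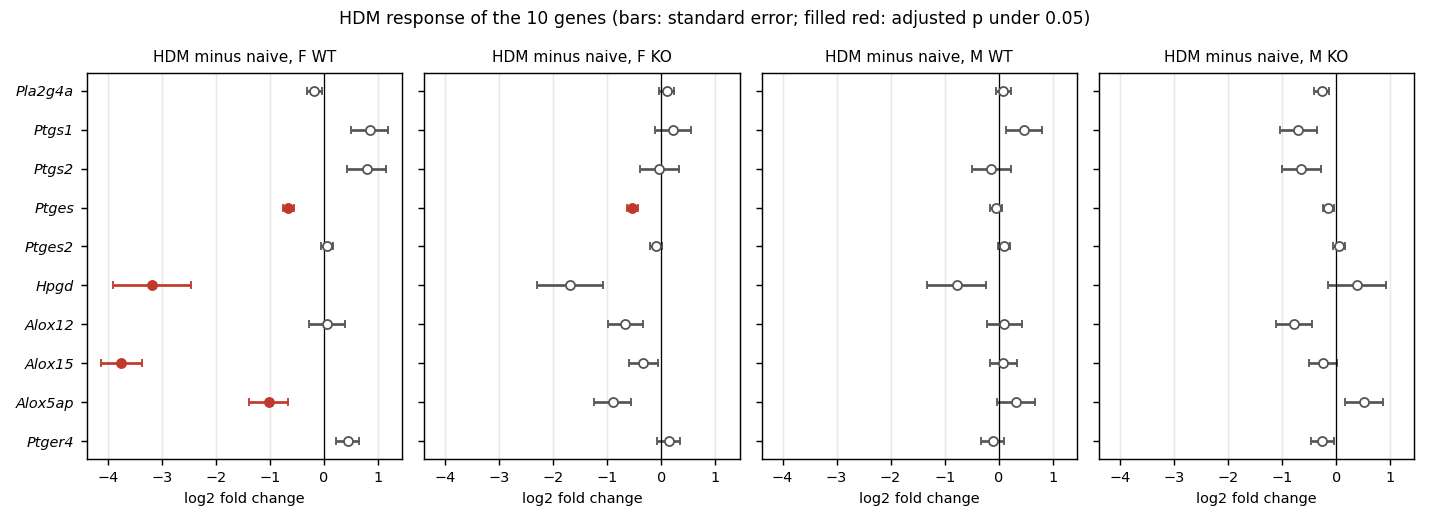
Log2 fold change of HDM over naive MTECs for the 10 genes in each sex and genotype. Bars show the SE derived from the F statistic, and filled red points an adjusted p under 0.05 (edgeR). In F WT, Alox15 at -3.75, Hpgd at -3.18, Alox5ap at -1.02 and Ptges at -0.66 are filled, in F KO only Ptges at -0.54, and in males none.

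Markers of several cell types moved in the same F WT comparison. Of the basal cell markers, 5 of 6 fell in F WT, and their summed level went from 9471 to 10341 CPM in naive libraries to 1971 to 3978 after HDM. Of the ciliated cell markers, 3 of 6 fell, the sum going from 650 to 728 CPM to 598 to 605. Of the club cell markers, 5 of 5 fell, and their summed level went from 14083 to 18238 CPM in naive libraries to 3798 to 4691 after HDM, with Cckar at 0. Of the goblet cell markers, 5 of the 5 tested fell, from a summed 140 to 168 CPM to 3.83 to 4.03, with Tff2 at 0. Macrophage markers fell in 3 of 6, from a sum of 239 to 289 CPM to 106 to 114, and leukocyte markers in 2 of 6, from 37.7 to 46.6 CPM to 22.5 to 28.3. Of the fibroblast markers, 2 of 7 rose, with sums of 26.6 to 533 CPM in naive and 48.0 to 580 in HDM libraries, and 0 of 5 tested smooth muscle markers passed, with sums of 60.3 to 146 and 284 to 464 CPM. Some sums were mostly 1 gene by group means. These were Acta2 for smooth muscle (89.8 to 356 CPM), Lyz2 for macrophages (190 to 64.8) and Tubb4b for ciliated cells (587 to 512). Tagln, Des and Actg2 had higher means after HDM and Myh11 and Cnn1 lower ones. Of the fibroblast markers, Col1a1 (129 to 25.1 CPM) and Thy1 (4.48 to 1.62) had lower means, and Col1a2, Col3a1, Pdgfra, Dcn and Lum higher ones. The other macrophage markers had lower means, and of the other ciliated ones all but Foxj1 did. Alox15 and Alox5ap are known from macrophages as well as epithelium, and Hpgd from epithelium. In F KO MTECs, 1 of 6 basal, 1 of 6 ciliated, 3 of 5 club, 4 of 5 tested goblet, 1 of 6 macrophage and 0 of 6 leukocyte markers fell and 0 of 7 fibroblast markers passed, whereas in males 0 of these passed. The part of these shifts in the values of the 10 genes was not tested.

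The second question was whether the sexes differed at a given genotype and treatment. Ptges was lower in female than in male MTECs in all 4 such comparisons, and it passed the test in 3 of them. The female libraries lay between 136 and 233 CPM and the male ones between 260 and 340, with no overlap. Between naive WT MTECs the log2 difference, female minus male, was -0.43 (SE 0.10, adjusted p = 0.177, edgeR). There 0 of the 10 genes passed, against 0.1% of all genes. At an unadjusted p under 0.05 by edgeR were 3 of the 10, and 1969 of all 15993 genes. DESeq2 called Ptges there (adjusted p = 0.0128). Between naive KO MTECs it was -0.61 (SE 0.10, 1.53-fold lower, adjusted p = 0.0477, edgeR), and Ptges was the 1 gene of the 10 that passed, against 0.188% of all genes in either direction and 0.119% with lower values. This last call was lost without any 1 of the 4 compared libraries, the values then lying between -0.68 and -0.55 and the adjusted p between 0.0990 and 0.620.

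After HDM, 4 of the 10 genes were lower in F WT than in M WT MTECs, namely Ptges, Hpgd, Pla2g4a and Alox15, in a comparison in which 41.6% of all genes passed and 21.3% did so with lower values in females. Between F KO and M KO MTECs, 2 of the 10 were lower, Ptges and Hpgd, against 25.3% and 12.9% of all genes. For Ptges the difference was -1.04 in WT (SE 0.10, 2.06-fold lower, adjusted p = 1.82e-05) and -1.01 in KO (SE 0.10, 2.01-fold lower, adjusted p = 1.14e-04), both from edgeR. Both calls held without each compared library in turn.

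Hpgd stood at 0.291 and 0.189 CPM in F WT HDM against 0.882 and 3.18 in M WT HDM libraries, and at 0.525 and 0.859 in F KO HDM against 3.28 and 4.61 in M KO HDM libraries. Female and male libraries did not overlap in either genotype. The differences were -3.05 in WT (SE 0.72, 8.26-fold lower, adjusted p = 0.00563, edgeR) and -2.50 in KO (SE 0.61, 5.64-fold lower, adjusted p = 0.0116). In WT the call was lost without M WT HDM replicate 2 (-1.85, adjusted p = 0.0605) or F WT HDM replicate 2 (-2.79, adjusted p = 0.0533), and in KO without M KO HDM replicate 2 (-2.23, adjusted p = 0.0730) or F KO HDM replicate 1 (-2.21, adjusted p = 0.0925). Pla2g4a had 68.7 and 66.6 CPM in F WT HDM and 99.6 and 86.7 in M WT HDM libraries, a difference of -0.46 (SE 0.14, 1.38-fold lower, adjusted p = 0.0206). It was lost without M WT HDM replicate 1 (-0.36, adjusted p = 0.121), F WT HDM replicate 1 (-0.49, adjusted p = 0.0571) or F WT HDM replicate 2 (-0.44, adjusted p = 0.102).

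For Alox15 the ratio of M WT HDM to F WT HDM libraries was 16.2 (exact 95% interval 6.12 to 60.7, counting error only), from 40 and 52 counts against 2 and 2. The fitted difference, female minus male, was -3.95 (SE 0.37, adjusted p = 1.16e-05, edgeR). Naive female and male libraries overlapped in WT, with a difference of -0.12 (adjusted p = 0.890), so that the sexes were apart in this gene after HDM and not detectably before. The other 6 genes passed in none of the 4 sex comparisons in the edgeR fit of all libraries. A fit of the compared libraries alone called Ptgs1 (0.70, adjusted p = 0.00960, edgeR) and Ptgs2 (0.49, adjusted p = 0.00209) higher in F KO HDM than in M KO HDM MTECs, and likewise Pla2g4a (0.30, adjusted p = 0.0137). That fit called 5820 of 14686 genes in either direction, against 4050 of 15993 in the fit of all libraries. In WT HDM MTECs, Alox5ap had -0.81 (SE 0.36, adjusted p = 0.0923, edgeR), which passed without M WT HDM replicate 1 (-1.12, adjusted p = 0.0486). In the same comparison Ptges2 gave 0.24 and Ptger4 0.32, and each passed without 1 library (Ptges2 without F WT HDM replicate 1, 0.39, adjusted p = 0.0220; Ptger4 without F WT HDM replicate 2, 0.63, adjusted p = 0.0277). Alox5ap was 1.39 higher in naive F KO than naive M KO MTECs on the log2 scale, at 4.96 and 5.64 against 1.59 and 2.43 CPM, without passing by edgeR (SE 0.35, adjusted p = 0.175). DESeq2 called it (adjusted p = 0.0257), as did edgeR without a filter on low counts (adjusted p = 1.63e-04). The sex differences of Alox12 lay between -0.08 and 0.42, and none passed.

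**Figure D3:**
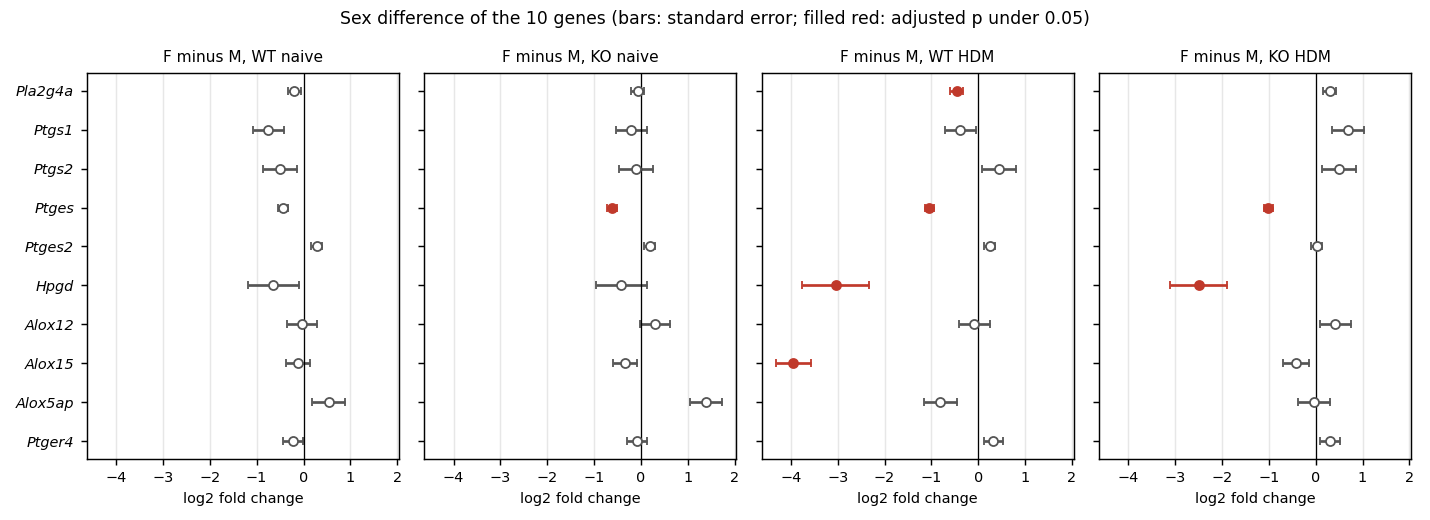
Log2 difference of female minus male MTECs for the 10 genes at each genotype and treatment. Bars show the SE derived from the F statistic, and filled red points an adjusted p under 0.05 (edgeR). Ptges lies at -0.43, -0.61, -1.04 and -1.01 from left to right and is filled in the last 3 panels, and Alox15 is filled only in WT HDM, at -3.95.

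The third question was whether libraries labelled KO differed from WT ones. Between naive MTECs, 0 of the 10 genes passed in either sex, as did 0% of all genes, and the differences, KO minus WT, ran from -0.21 to 0.52 in females and from -0.34 to 0.18 in males. DESeq2 called 1 gene of all in naive females and 0 in naive males, and 203 and 867 genes had an unadjusted p under 0.05 by edgeR, none of the 10 among them. After HDM, 1 of the 10 passed in females, Alox15, against 29.2% of all genes in either direction and 14.9% with higher values. F KO HDM libraries had 0.767 and 0.931 CPM and F WT HDM libraries 0.0832 and 0.0947, a ratio of 9.63 (exact 95% interval 3.51 to 36.9, counting error only), and a fitted log2 difference of 3.20 (SE 0.39, adjusted p = 2.53e-04, edgeR). Ptgs2 differed by -0.70 there (SE 0.36, adjusted p = 0.170), and by -1.15 with a pass when F WT HDM replicate 1 was left out (adjusted p = 0.0312). Pla2g4a was 0.33 higher in F KO HDM MTECs, without overlap (SE 0.14, adjusted p = 0.0945, edgeR), and passed in a fit of the compared libraries alone (adjusted p = 0.0356). Hpgd was 2.84-fold higher there, also without overlap (SE 0.79 on the log2 scale, adjusted p = 0.171, edgeR), and passed without a filter on low counts (adjusted p = 0.00599). The remaining 6 genes lay between -0.47 for Alox12 and 0.63 for Alox5ap, and none passed.

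In HDM-treated males 0 of the 10 passed, as did 0% of all genes by edgeR, although DESeq2 called 481 genes, edgeR with replicate number as a block called 480, among them 3 of the 10, and 2897 had an unadjusted p under 0.05 by edgeR without it, also 3 of the 10 among them. Ptgs1 had 4.99 and 4.16 CPM in M KO HDM and 14.2 and 7.23 in M WT HDM libraries, a difference of -1.22 (SE 0.34, adjusted p = 0.169, edgeR), which DESeq2 called (adjusted p = 0.0245). Ptgs2 had 69.1 and 64.1 against 134 and 90.9 CPM, a difference of -0.75 (SE 0.37, adjusted p = 0.299). Pla2g4a had 71.9 and 66.9 against 99.6 and 86.7 CPM, a difference of -0.43 (SE 0.14, adjusted p = 0.189). Alox12 had 4.85 and 4.27 against 10.6 and 7.26 CPM, a difference of -0.97 (SE 0.33, adjusted p = 0.198). None of these 4 genes overlapped between the groups, and M KO HDM libraries were the lower ones. The same held for Alox15 and Ptger4, while Ptges, Ptges2 and Hpgd were higher without overlap, and only Alox5ap overlapped. The share of all genes without overlap was not counted, and with 2 libraries a group such separation is not a test. Hpgd, in contrast, had 3.28 and 4.61 CPM in M KO HDM libraries, above the 0.882 and 3.18 of M WT HDM, with a difference of 0.95 (SE 0.55, adjusted p = 0.371, edgeR). The other 5 lay between -0.33 for Alox15 and 0.11 for Ptges2. Without a filter on low counts Ptgs1, Ptgs2, Pla2g4a, Alox12 and Hpgd all passed, with adjusted p up to 0.0418 (edgeR). That setting called 1896 of 29397 genes in this comparison.

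Of 62 further genes of the pathway, 39 were tested. In F WT MTECs 15 of the 39 passed after HDM, 7 higher and 8 lower, and in F KO MTECs 5 passed, all lower, while in males 0 passed. Over all genes the share that passed was 43.1% in F WT and 10.4% in F KO. Among prostanoid synthases 4 of 8 passed in F WT. Akr1c18, a hydroxysteroid dehydrogenase that also acts on prostaglandins, fell from 97.6 and 103 CPM to 3.50 and 5.87 in F WT and from 102 and 97.7 to 29.5 and 23.2 in F KO MTECs. Its log2 fold changes were -4.44 (SE 0.22, adjusted p = 1.49e-07, edgeR) and -1.93 (SE 0.18, adjusted p = 2.56e-04).

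Hpgds, the hematopoietic prostaglandin D synthase, fell from 8.94 and 9.04 CPM to 1.29 and 1.14 in F WT and from 10.5 and 8.30 to 4.32 and 4.62 in F KO MTECs. The log2 fold changes were -2.88 and -1.07 (adjusted p = 2.85e-06 and 0.00617, edgeR). Mast cells and tuft cells are known to use this enzyme. In F WT the summed mast cell markers went from 5.92 to 8.38 CPM to 0.957 to 2.08 after HDM, with 1 of 2 tested markers lower. This sum was almost all Hdc (group means 5.02 and 0.374 CPM) and Kit (2.12 and 1.12). In the naive libraries Cpa3 was already at a mean of 0.0112 CPM and Mcpt4, Tpsb2 and Fcer1a at 0, so the sum does not show a loss of mast cells. Of the tuft cell markers, 3 of 5 tested fell and 1 rose. The part of these markers in the values of Hpgds was not tested. Prxl2b, known as a prostamide and prostaglandin F synthase, fell by 1.13 on the log2 scale in F WT, and Ptges3, the cytosolic prostaglandin E synthase and a chaperone partner, rose by 0.31. Ptgds, Ptgis and Tbxas1, the synthases of prostaglandin D2, prostacyclin and thromboxane, were low: Ptgds reached at most 0.616 CPM, Tbxas1 at most 0.763 and Ptgis at most 2.83, in 1 F WT naive library, and none passed.

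Of the 6 genes of prostanoid breakdown and transport, 4 passed in F WT. The reductase Cbr1 fell from 109 and 110 CPM to 57.8 and 60.5 (log2 fold change -0.89, SE 0.09, adjusted p = 2.74e-05, edgeR), and Ptgr2, a prostaglandin reductase, fell by 0.53. The prostaglandin transporter Slco2a1 rose from 102 and 88.9 CPM to 163 and 142 (log2 fold change 0.67, SE 0.10, adjusted p = 2.58e-04), and the exporter Abcc4 rose by 0.49. The 2 enzymes that passed were thus lower and the 2 transporters higher in F WT HDM MTECs. In F KO MTECs Cbr1 fell by 0.65 (adjusted p = 0.00197, edgeR), and Slco2a1 had a log2 fold change of 0.27 that did not pass (adjusted p = 0.109). Of the phospholipases A2, Plaat3 fell by 0.89 in F WT and by 0.62 in F KO MTECs, and Pla2g6 rose by 0.34 in F WT.

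On the leukotriene side, 3 of the 6 tested genes of synthesis and cleavage passed in F WT. Mgst2, a microsomal glutathione transferase that can make leukotriene C4, fell from 6.94 and 7.44 CPM to 1.12 and 1.52 (log2 fold change -2.45, SE 0.32, adjusted p = 1.21e-04, edgeR) and from 7.95 and 7.93 to 3.35 and 2.61 in F KO MTECs (-1.41, adjusted p = 0.0115). Dpep2, a dipeptidase that cleaves leukotriene D4, rose from 2.36 and 2.67 CPM to 7.99 and 9.57 in F WT (1.80, SE 0.25, adjusted p = 1.73e-04), and in F KO MTECs its log2 fold change was 0.02 (SE 0.25). Lta4h, which makes leukotriene B4, fell by 0.16. The 5-lipoxygenase gene Alox5, the partner of Alox5ap, stood at 0.799 and 1.15 CPM in F WT naive and 1.46 and 2.32 in F WT HDM libraries without passing (0.93, adjusted p = 0.147, edgeR). Ltc4s was too low to be tested, with at most 0.372 CPM in any library. Ltb4r1, a leukotriene B4 receptor, rose by 1.34 in F WT, and Ephx2, the soluble epoxide hydrolase, by 0.99. None of the 3 prostanoid receptor genes tested passed.

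**Figure D4:**
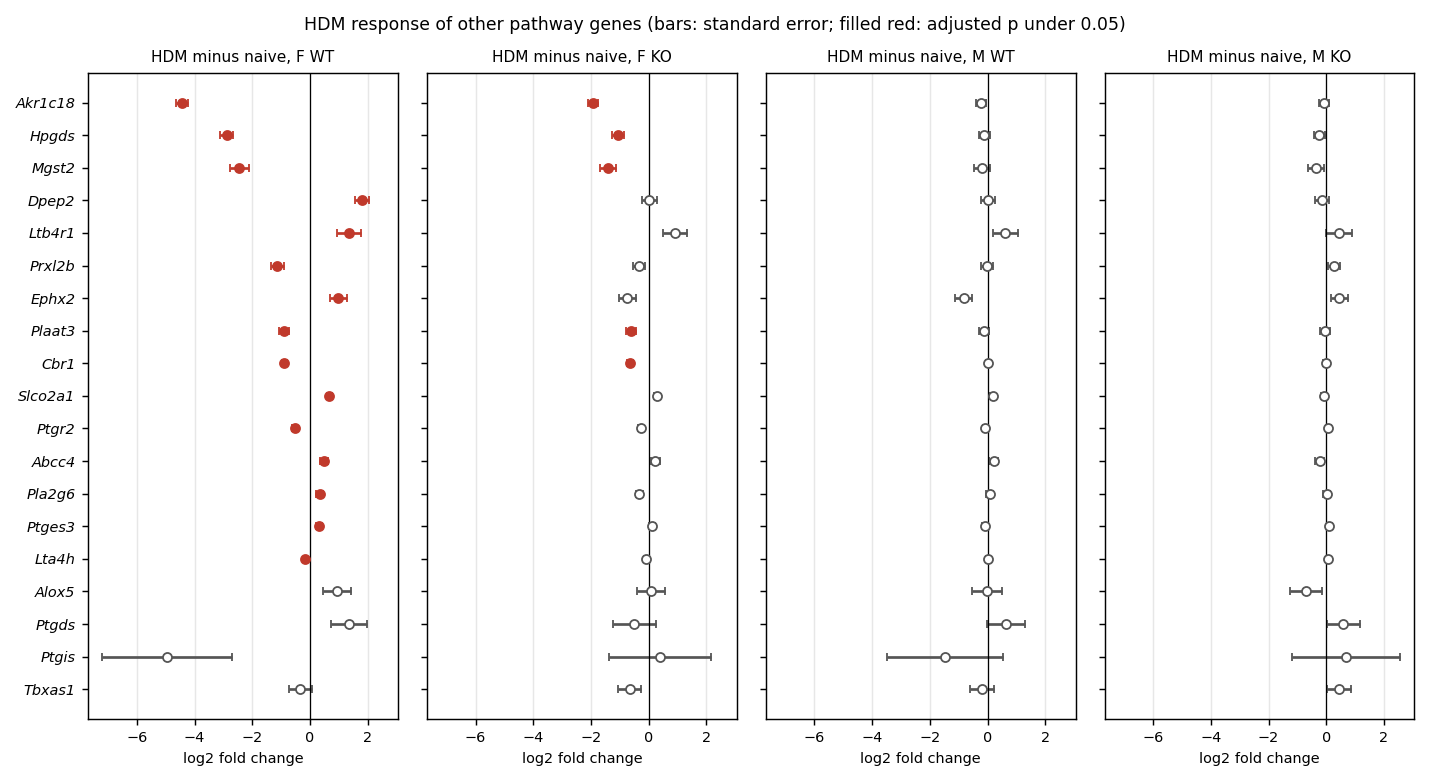
Log2 fold change of HDM over naive MTECs for the named further genes of the pathway. Bars show the SE derived from the F statistic, and filled red points an adjusted p under 0.05 (edgeR). In F WT the points run from -4.44 for Akr1c18 to 1.80 for Dpep2 among filled ones, in F KO 5 are filled, all below zero, and in males none.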

How the data were processed

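RNA of 16 MTEC libraries was sequenced after mRNA enrichment and random priming. What the authors deposited is 1 table of raw counts, a row per Ensembl gene and not normalized. The submitters' processing notes name Trimmomatic 0.36, STAR 2.5.2b, featureCounts, Subread 1.5.2, DESeq2 and the build GRCm38, without their roles. The annotation release and strand setting are not given in the sources used here. Column names, which give the sex, genotype and treatment, were matched to the samples, an unnumbered column being taken as replicate 1. Reads of a rare gene rest on few counts, and as no molecular identifiers are named, intervals and the floor of 3 counts per library cover counting error only.

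Symbols, positions and exon lengths came from GENCODE M21 on GRCm38 (49056 of 49315 identifiers matched, and the rest carried 0.0106% of counts). Genes were filtered with filterByExpr by group, libraries were scaled by TMM, and edgeR 4.0.16 in R 4.3.3 fitted the means of the 8 groups to all 15993 genes by quasi-likelihood. The common biological coefficient of variation was 0.142. A gene was called at a Benjamini-Hochberg adjusted p under 0.05 over all genes, separately in 16 comparisons: 4 HDM responses, 4 differences between HDM responses, 4 sex and 4 genotype differences. Tests were two-sided. CPM values are counts relative to library sizes scaled by TMM. Other settings were DESeq2 1.42.0, upper-quartile scaling, no filter, only the compared libraries, replicate number as a block, and leaving out each library, where a lone sample was assumed to vary like the other groups.

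The 10 genes and the lists of pathway and marker genes were chosen with earlier results of these data known. All 10 were tested in every comparison, and values are printed for some and ranges for the rest. Of the pathway genes, those called in an HDM response with a mean of at least 1 CPM were named, with the partner enzymes Alox5, Ltc4s, Hpgds, Ptgds, Ptgis, Tbxas1 and Lta4h. Replicates of a group differed beyond sampling noise, with a chi-square per degree of freedom from 4.64 to 44.9. Same-numbered replicates of 2 groups had correlated deviations between -0.164 and 0.483, which with 2 pairs does not show pairing. The steps were tested on simulated data. Python 3.11.15, pandas 2.3.3, scipy 1.17.1 and matplotlib 3.10.9 were used for the rest. Airway function, lavage and protein assays were not analysed here.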

Additional observations from a re-analysis of the deposited data

Results flagged for a closer look

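These values mark genes whose HDM response differed between sexes or genotypes by a test of the difference itself, on the log2 scale (quasi-likelihood test in edgeR, adjusted by Benjamini-Hochberg over all genes). In WT MTECs the response of females minus that of males was -0.61 for Ptges and -3.83 for Alox15 among the 10 genes. Among further pathway genes it was -4.21 for Akr1c18, -2.77 for Hpgds, -2.26 for Mgst2, -1.12 for Prxl2b, -0.91 for Cbr1, -0.77 for Plaat3 and -0.44 for Ptgr2, and on the other side 1.82 for Ephx2, 1.78 for Dpep2, 0.50 for Slco2a1 and 0.41 for Ptges3. In KO MTECs it was -1.85 for Akr1c18 and -0.64 for Cbr1.

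Between the genotypes in females, the response of KO minus that of WT MTECs was 3.41 for Alox15, 2.51 for Akr1c18 and 1.81 for Hpgds, and it was -1.77 for Dpep2, -1.73 for Ephx2 and -0.67 for Pla2g6. In these comparisons 24.2%, 3.56% and 11.2% of all tested genes passed, in the order given, and in males no gene passed between the genotypes by edgeR or DESeq2, with 1388 genes at an unadjusted p under 0.05 by edgeR. Alox15 was at 2 counts in each F WT HDM library. For Ephx2 the log2 fold changes behind these differences were 0.99 in F WT, -0.83 in M WT and -0.74 in F KO MTECs, of which only the first passed its own test.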

How the results depend on the processing

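Of the 16 calls among the 10 genes, 0 changed sign under any setting. Counts of these genes called moved by over 1.5 times as follows, and the cause was not tested. Without a filter on low counts they were, for the HDM response, 4 in F KO (1 in the text) and 3 in M KO (0), for its difference between the sexes 5 in WT (2) and 4 in KO (0), for its difference between the genotypes 2 in females (1) and 2 in males (0), for the sex difference 3 in naive WT (0), 2 in naive KO (1) and 5 in KO HDM (2), and for the genotype difference 4 in female (1) and 5 in male HDM MTECs (0). Over all 29397 genes this setting called, in the same order, 2717, 705, 4454, 1977, 3029, 668, 644, 859, 4536, 5149 and 1896. The fit in the text called 1664, 0, 3866, 569, 1798, 0, 16, 30, 4050, 4669 and 0 of 15993. With only the compared libraries, the counts among the 10 were 3 for F KO HDM responses and 1 for the sex difference of WT responses. They were 0 and 5 for the sex difference in naive and HDM KO, and 2 for the genotype difference in female HDM MTECs. DESeq2 gave 2 for F KO responses, and 1 and 2 for the sex difference in naive WT and KO. For the genotype difference in male HDM MTECs it gave 1. Over all 29397 genes DESeq2 called 2092, 200, 211 and 481, in that order. With the replicate block, the counts were 2 for F KO responses, 5 for the sex difference of WT responses, 0 for the sex difference in naive KO, and 2 and 3 for the genotype difference in female and male HDM MTECs, and further pathway genes called in F KO rose from 5 to 8. Over all 15993 genes the block called 2150 in F KO responses and 4429 in the sex difference of WT responses. It called 15 in the sex difference in naive KO, and 4726 and 480 in the genotype difference in female and male HDM MTECs. Among the 10 genes the block changed 10 values to a pass and 1 to a miss. The passes were Ptgs1 and Ptgs2 in F WT responses (0.84 and 0.72, adjusted p = 0.0159 and 0.0136, edgeR), Hpgd in F KO ones (-1.66, adjusted p = 0.0287), Hpgd, Alox5ap and Ptgs2 in the sex difference of WT responses (-2.27, -1.34 and 0.88), Pla2g4a in the genotype difference of female HDM MTECs (0.33, adjusted p = 0.0240), and Ptgs1, Pla2g4a and Alox12 in that of male HDM MTECs (-1.16, -0.42 and -0.95, adjusted p = 0.0420, 0.0466 and 0.0463), where it called 480 of all genes. A setting chosen after seeing the data crossed the replicate numbers between the groups. Its counts were 0 for M KO responses and 1 for the sex difference in naive KO, against 0 and 61 of all genes. Without a filter, 3 further pathway genes were called in M KO MTECs. Over all genes, that setting called 149 in M WT responses, 705 in M KO responses and 1896 in the genotype difference of male HDM MTECs. The fit in the text called 0 in each. With only the compared libraries, 2804 of 14969 genes were called for F KO responses and 5820 of 14686 for the sex difference in KO HDM. That setting called 2602 of 15654 in the sex difference of WT responses and 9 of 15190 in that in naive KO. For the genotype difference in female HDM MTECs it called 3627 of 14616.

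With 1 library left out, counts ranged from 0 to 1 for F KO responses, from 1 to 4 and 0 to 1 for the sex difference of WT and KO responses, from 0 to 0 and 1 to 2 for the sex difference in naive and HDM KO, from 1 to 2 for the genotype difference in female HDM MTECs, and, for further pathway genes, from 2 to 4 in F KO and 0 to 1 in M KO. Sign changes were counted where a value was called or exceeded its standard error. They arose with 1 library left out, in uncalled values: Pla2g4a in M KO responses (-0.51 to 0.0083), Ptgs1 in M WT responses (-0.10 to 0.88) and in the sex difference in WT HDM (-0.79 to 0.18), Ptgs2 in the same (-0.23 to 0.89), Ptger4 in the same (-0.091 to 0.63), in the genotype difference of female responses (-0.62 to 0.11) and in female HDM MTECs (-0.55 to 0.18), and Ptges2 in the genotype difference of female responses (-0.30 to 0.011) and in naive males (-0.0046 to 0.27). The 82 other sign changes were within 1 standard error. Precision is limited by 2 cultures per group and, for Alox15 and Hpgd, by few counts.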
